A study of Mus musculus with 6 samples.

Results

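The proteasome genes were taken by name from RNA-seq of ependymal cells, the multiciliated cells that line the brain ventricles, sorted from the adult mouse ventricular-subventricular zone. Every gene was taken whose symbol is Psm, then 1 letter from a to g, a number and at most 1 further lower-case letter. This gave 49 of the 47643 genes listed, and left out Psmc3ip and 4 Psm genes marked as pseudogenes. In 3 samples (Ccn1cKO), tamoxifen had induced recombination that deleted Ccn1, which encodes a secreted matricellular protein, and switched on GFP in ependymal cells, and 3 samples (Ctrl) came from control mice. Cells of both genotypes were sorted 2 days after tamoxifen, by a GFP gate set by hand against wild-type cells. The alleles of the Ctrl mice, the strain, the exact age and the promoter that drives the recombinase are unstated in the labels. Nothing in the labels says whether the 3 samples of a genotype came from separate animals, so p-values measure the spread between these samples, which may be technical. The labels call the RNA total RNA in one field and cytoplasmic RNA in another.

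The proteasome is the protease that degrades most ubiquitin-tagged proteins of the cytosol and nucleus. Its 20S core is a barrel of stacked rings: outer rings of alpha subunits form the gate, and inner rings of beta subunits hold the proteolytic sites, carried by the products of Psmb5, Psmb6 and Psmb7. Interferons induce Psmb8, Psmb9 and Psmb10, whose products take the places of these 3 catalytic subunits in the immunoproteasome and favour peptides for MHC class I. The 19S cap recognises, unfolds and deubiquitinates substrates, other activators (the Psme genes) bind the same end of the core, and dedicated chaperones assist assembly.

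The libraries held 13401499 to 15689579 estimated counts each. Ctrl 1 stood apart from the other 5 libraries on the first principal component of all tested genes (29.2% of the variance) and Ctrl 3 on the second (21.5%). The deleted gene went with the labels: Ccn1, listed as Cyr61, had 411, 238 and 524 counts in Ccn1cKO 1 to 3, against 1665, 2037 and 2224 counts in Ctrl 1 to 3. All 8 ependymal markers examined, among them Foxj1, Tmem212 and Rarres2, were above 3 counts in every library, and they summed to 9155 to 9471 CPM (counts scaled to a common library size after TMM) in Ccn1cKO and 8559.9 to 11924 CPM in Ctrl. The 9 microglial markers summed to 37.6 to 68.5 CPM in Ccn1cKO and 40.1 to 68.2 CPM in Ctrl, with 1 of 9, C1qb, above 3 counts in every library and Ptprc at 0 in all 6. Of 7 endothelial markers, 6 were at 0 in all 6 libraries. In such bulk samples, fewer cells of a type and less RNA per cell cannot be told apart.

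Proteasome transcripts were abundant, and their total differed between the genotypes by less than the spread between libraries. The 49 genes together made up 1.08 ± 0.0214% of all TPM (a length-corrected share of the library's transcripts, by which levels of different genes can be compared) in Ccn1cKO and 1.08 ± 0.0639% in Ctrl (SD, n = 3 each). Of the 49, 47 passed the filter on low counts and were tested; Psma8 and Psme2b did not pass. The class medians below are over tested genes.

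**Figure D1:**
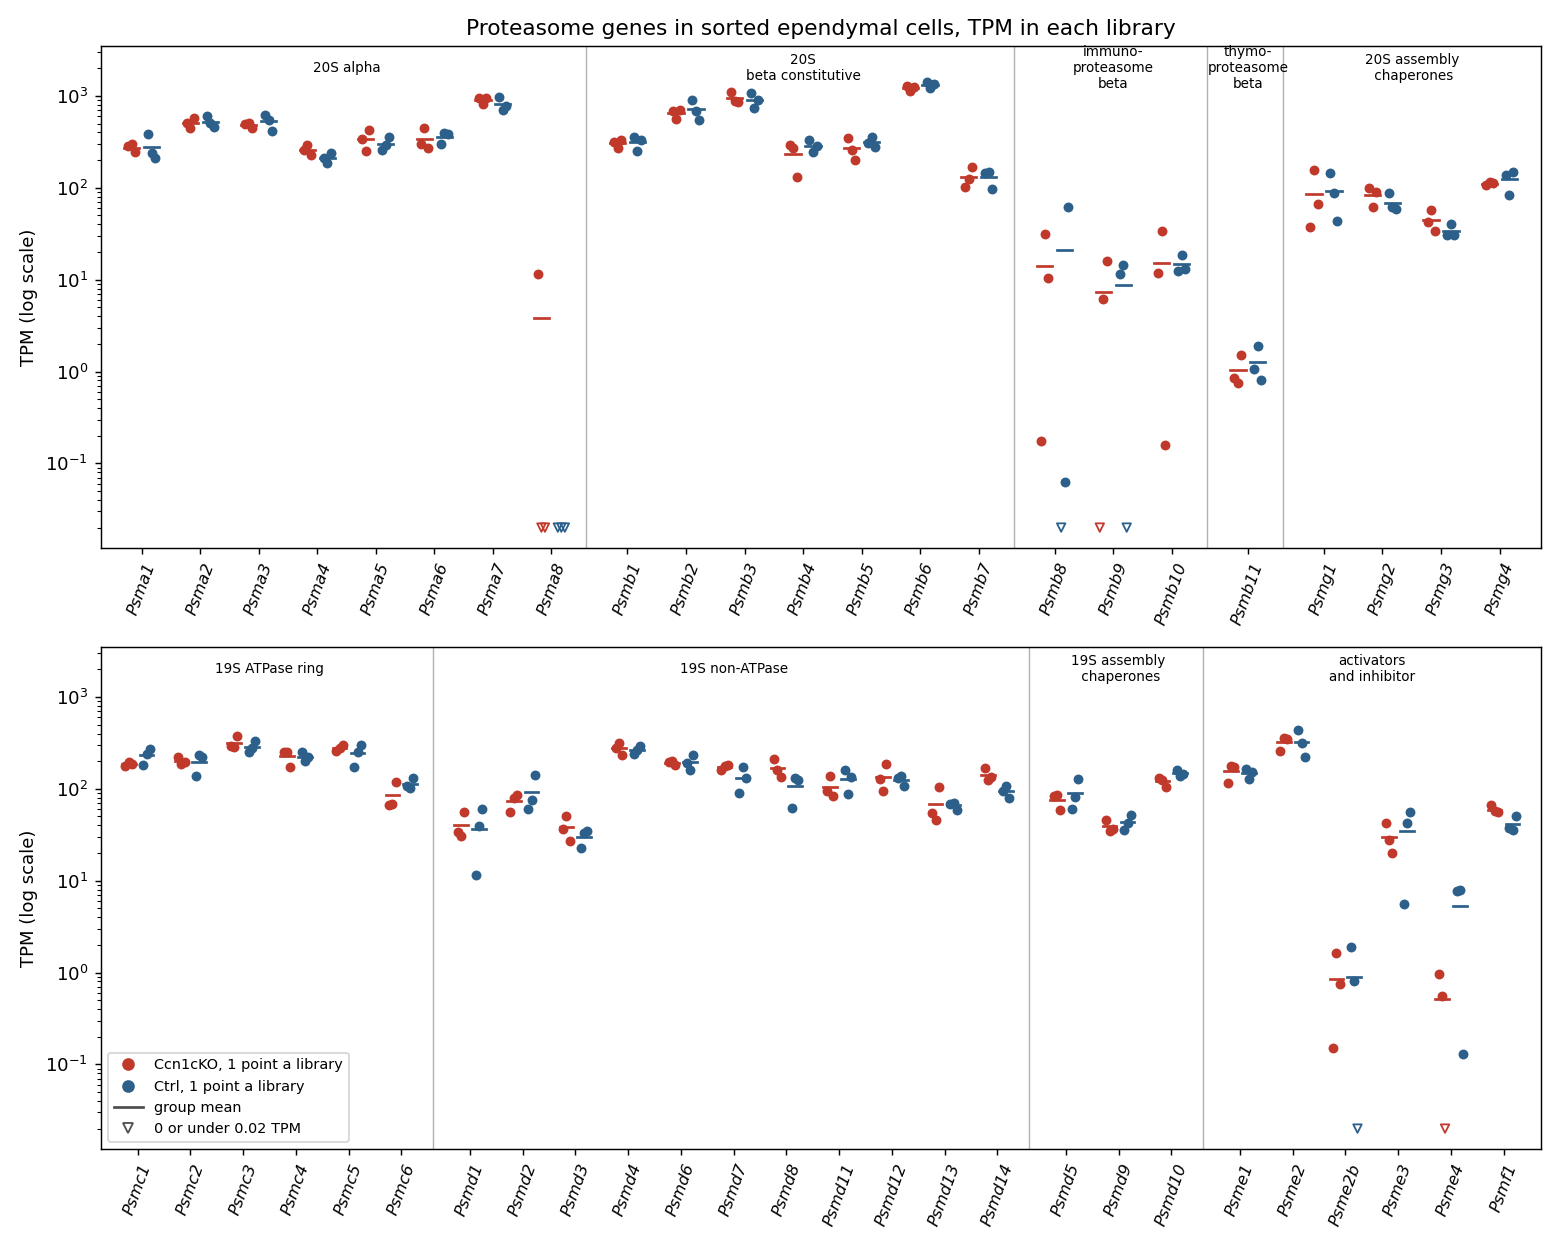
Level of each of the 49 proteasome genes in each library, in TPM on a log scale, with Ccn1cKO (red) left of Ctrl (blue) for each gene, grouped by role; bars are group means and open triangles mark values under 0.02 TPM. Psmb6 lies highest in every library, and Psmb8, Psmb9, Psmb10 and Psme4 are the tested genes with points furthest apart.

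Among the alpha ring genes, whose products form the gated entrance, Psma1 to Psma7 were expressed in every library. Their median level was 402 ± 55.8 TPM in Ccn1cKO and 389 ± 4.31 TPM in Ctrl (SD, n = 3 each). Psma7 was the highest alpha gene in 6 of 6 libraries, with 948, 823 and 960.3 TPM in Ccn1cKO 1 to 3, against 961, 699.6 and 782 TPM in Ctrl 1 to 3. Psma4 had the lowest mean level, 236 TPM over the 6 libraries, and was the lowest of the 7 in 4 of 6 libraries. The remaining alpha genes lay between them, from a mean of 277 TPM for Psma1 to 517 TPM for Psma2. Psma8, the testis-specific alternative to Psma7 in the mouse, had 204, 0 and 0 counts in Ccn1cKO 1 to 3, against 0, 0 and 0 counts in Ctrl 1 to 3. Ccn1cKO 1 was thus the one library with Psma8 counts.

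The constitutive beta ring genes had a median level of 319 ± 42.1 TPM in Ccn1cKO and 347 ± 14.0 TPM in Ctrl (SD, n = 3 each). They differed more among themselves than the alpha genes: the standard deviation between the 7 beta genes was 76.2% of their mean, against 49.3% for the 7 tested alpha genes. The highest and the lowest mean were both those of catalytic subunit genes. Psmb6, which encodes the caspase-like subunit, had 1287, 1136 and 1264 TPM in Ccn1cKO 1 to 3, against 1413, 1209 and 1351 TPM in Ctrl 1 to 3. It was the most abundant of the 49 genes in 6 of 6 libraries, at rank 76 to 101 among all genes in TPM. Psmb7, which encodes the trypsin-like subunit, had 102, 126 and 169 TPM in Ccn1cKO 1 to 3, against 144, 150.1 and 97.0 TPM in Ctrl 1 to 3. Psmb5, which encodes the chymotrypsin-like subunit, had 351, 261 and 199 TPM in Ccn1cKO 1 to 3, against 310.3, 353 and 279.6 TPM in Ctrl 1 to 3. The order Psmb6 over Psmb5 over Psmb7 held in 6 of 6 libraries, with Psmb6 7.47- to 13.9-fold above Psmb7 although their products occupy the ring in equal copies. The structural beta genes Psmb3, Psmb2, Psmb1 and Psmb4 averaged 928, 683, 309.9 and 261 TPM. Psmb4 was low in 1 library, with 295, 271 and 132 TPM in Ccn1cKO 1 to 3, against 334, 244 and 288 TPM in Ctrl 1 to 3. A limit applies to some of these levels, since kallisto divides reads between near copies: in GENCODE M21, 71.7% of the 31-base words of Psmb5 transcripts also occurred in other genes, most in the gene model Gm3375, as did 61.0% for Psma5, 21.8% for Psma4 and 21.7% for Psmb3, but 6.24% for Psmb6, 11.3% for Psmb7 and 2.47% for Psma7.

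Against this constitutive set, the interferon-inducible catalytic genes were low and uneven. The 250 bases before the start sites of Psmb5 and Psmb6, and of Psmb8 and Psmb9 that can replace them, are shown because the first pair was at high level in every library and the second was not. The sequences are from RefSeq on GRCm38.p6, read 5′ to 3′ on the gene's strand. Capitals mark matches to 3 motifs searched on both strands, which are the antioxidant response element core TGACNNNGC, the interferon-stimulated response element core (GAAA, any 2 bases, GAAA) and the gamma-activated site TTCNNNGAA.
Psmb5 (chr14:54617996-54618245, minus strand): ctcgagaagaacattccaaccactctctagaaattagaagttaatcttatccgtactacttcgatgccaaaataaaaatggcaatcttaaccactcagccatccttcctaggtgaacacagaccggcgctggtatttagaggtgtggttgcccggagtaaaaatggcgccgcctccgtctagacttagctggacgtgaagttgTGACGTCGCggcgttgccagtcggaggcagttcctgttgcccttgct
Psmb8 (chr17:34197945-34198194, plus strand): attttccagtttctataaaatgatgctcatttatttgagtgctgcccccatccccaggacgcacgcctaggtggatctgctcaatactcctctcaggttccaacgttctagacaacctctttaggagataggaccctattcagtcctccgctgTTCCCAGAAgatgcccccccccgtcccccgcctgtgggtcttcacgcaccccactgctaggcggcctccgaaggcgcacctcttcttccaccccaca
Psmb6 (chr11:70525107-70525356, plus strand): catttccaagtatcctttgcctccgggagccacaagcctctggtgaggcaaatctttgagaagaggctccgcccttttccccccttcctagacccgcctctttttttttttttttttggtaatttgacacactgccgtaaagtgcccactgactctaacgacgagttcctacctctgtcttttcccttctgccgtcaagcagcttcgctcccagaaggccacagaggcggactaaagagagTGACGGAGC
Psmb9 (chr17:34187331-34187580, minus strand): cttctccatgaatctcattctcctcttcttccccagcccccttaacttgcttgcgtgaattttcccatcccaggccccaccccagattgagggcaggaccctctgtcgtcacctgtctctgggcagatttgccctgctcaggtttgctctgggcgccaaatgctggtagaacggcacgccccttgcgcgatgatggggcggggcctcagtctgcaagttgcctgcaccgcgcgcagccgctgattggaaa
The antioxidant response element core, which binds NRF1 and NRF2, matched from position -47 of Psmb5 and -9 of Psmb6, counted from the start site, and the Psmb8 window held a gamma-activated site from position -97. None of the 3 motifs matched in the Psmb9 window. The Psmb8 and Psmb9 windows lie inside the GENCODE M21 spans of these genes, which start at 34197721 for Psmb8 and at 34187764 for Psmb9. These windows therefore do not cover the bases before the GENCODE starts, and a missing match says nothing about those bases. Such short motifs are common: the 3 occurred in 10.2%, 2.98% and 7.02% of 32851 RefSeq promoter windows of 250 bases, and in 5, 3 and 2 of the 41 proteasome genes with a window. A match is a description of the letters and not a site of binding.

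Psmb8, the inducible counterpart of Psmb5, had 3, 501 and 179 counts in Ccn1cKO 1 to 3, against 0, 1 and 1151 counts in Ctrl 1 to 3. It was thus present in Ccn1cKO 2, Ccn1cKO 3 and Ctrl 3 and at 3 counts or fewer in the other 3 libraries, where a count of 0 allows up to 3. Psmb9, the counterpart of Psmb6, had 0, 78 and 216 counts in Ccn1cKO 1 to 3, against 187, 183 and 0 counts in Ctrl 1 to 3. It was at 0 in 1 library of each genotype, and present in 2 of the libraries that nearly lacked Psmb8. Psmb10, the counterpart of Psmb7, had 147, 397 and 2 counts in Ccn1cKO 1 to 3, against 187, 218 and 176 counts in Ctrl 1 to 3. It was nearly absent from Ccn1cKO 3, which had both other inducible genes. All 3 groups of values overlapped between the genotypes, and each genotype held libraries with and without Psmb8 and Psmb9. Ctrl 3, which stood apart on the second component, had the highest Psmb8 count and no Psmb9. Of the 31-base words of Psmb8, 13.7% occur in other genes, as do 4.79% for Psmb9 and 0% for Psmb10. The part of such sharing in these counts was not tested.

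**Figure D2:**
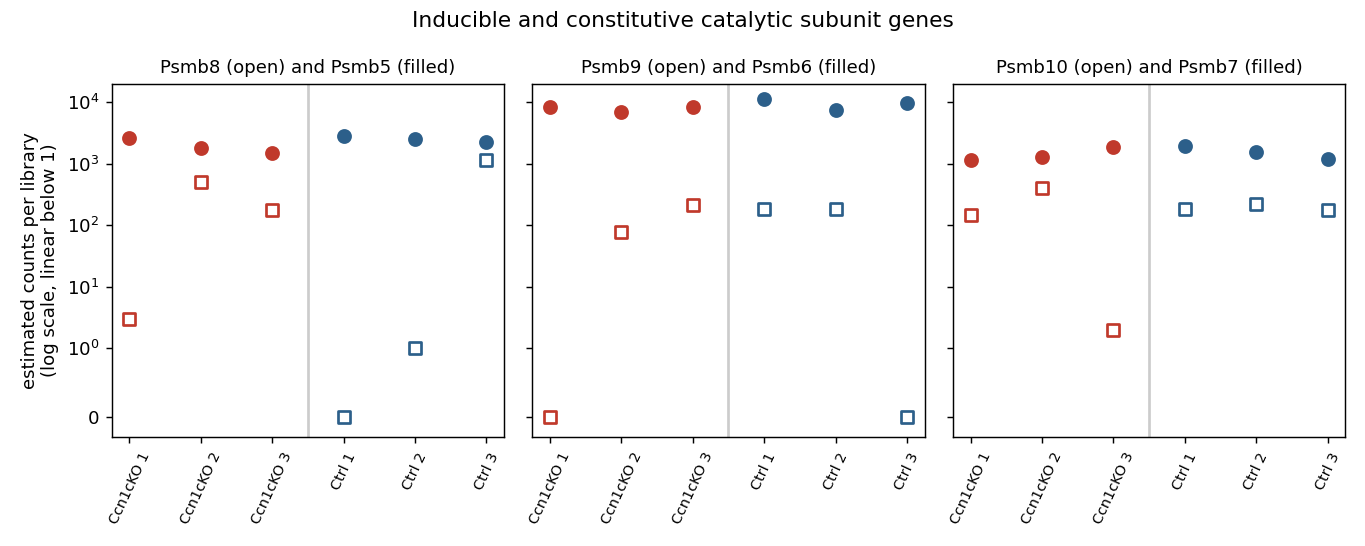
Estimated counts of the inducible (open squares) and constitutive (filled circles) catalytic subunit genes in each library, Ccn1cKO red and Ctrl blue, on an axis that is logarithmic above 1 and linear below. The constitutive genes stay between 1137 and 11102 counts in all 6 libraries, while each inducible gene is at 3 counts or fewer in at least 1 library.

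As a share of each pair in TPM, Psmb8 made up 0.05, 10.8 and 4.99% in Ccn1cKO 1 to 3, against 0, 0.0177 and 18.2% in Ctrl 1 to 3. Psmb9 made up 0, 0.54 and 1.24% in Ccn1cKO 1 to 3, against 0.813, 1.18 and 0% in Ctrl 1 to 3. Psmb10 made up 10.3, 21.3 and 0.0937% in Ccn1cKO 1 to 3, against 7.99, 11.0 and 11.8% in Ctrl 1 to 3. Of the summed TPM of the 6 catalytic genes, the 3 inducible ones made up 0.679, 4.49 and 1.59% in Ccn1cKO 1 to 3, against 1.27, 1.89 and 4.18% in Ctrl 1 to 3, so the constitutive genes carried most of it in every library. Single libraries set these shares: without Ctrl 3 the mean Psmb8 share in Ctrl was 0.00885%, against 6.08% with it. Microglia can express Psmb8 to Psmb10; the microglial marker sum was 68.5, 50.9 and 37.6 CPM in Ccn1cKO 1 to 3, against 45.1, 40.1 and 68.2 CPM in Ctrl 1 to 3, and its part in these values was not tested. Psmb11, the catalytic subunit gene of the thymoproteasome, had 42, 35 and 77 counts in Ccn1cKO 1 to 3, against 63, 90 and 44 counts in Ctrl 1 to 3, at most 1.92 TPM.

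Values near 0 in single libraries were common among all genes. A library at 3 counts or fewer was found for 36.9% of the 11574 tested genes, and for 4 of the 47 tested proteasome genes, Psmb8, Psmb9, Psmb10 and Psme4. No such library was found for the 40 proteasome genes that averaged 50 CPM or more, and for these the median within-group standard deviation was 21.1% of the mean, against 27.4% over all 3480 genes past that level. The sets were not matched for level: the median was 195 CPM for the 40 and 112 CPM for the 3480.

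**Figure D3:**
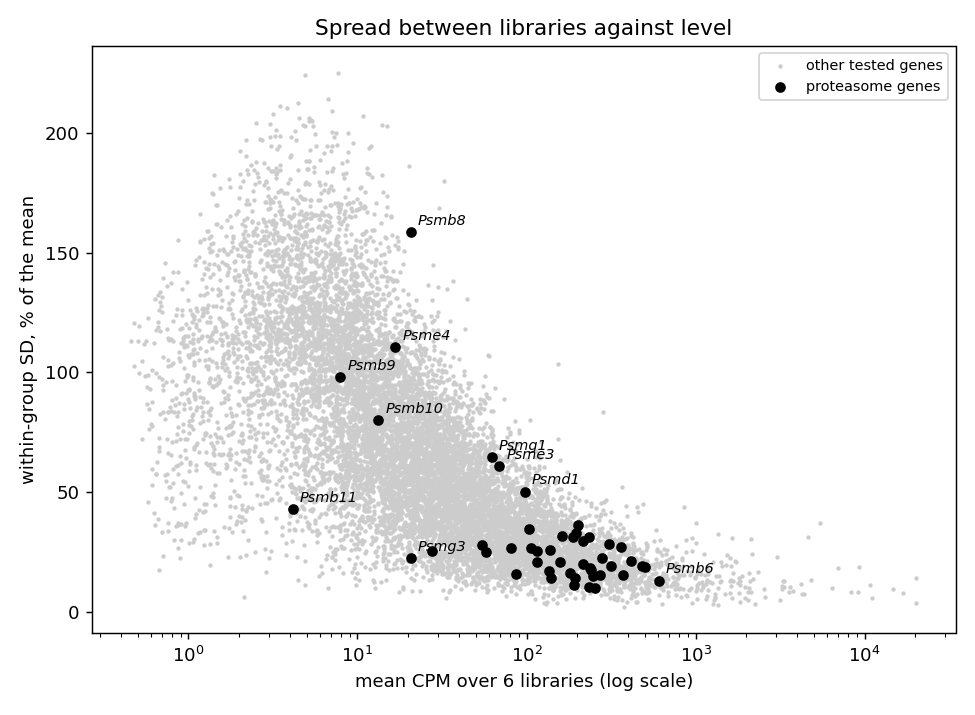
Within-group standard deviation of CPM, as a percentage of the mean over 6 libraries, against that mean on a log scale, for the 47 tested proteasome genes (black) and all other tested genes (grey). Most proteasome genes lie at high level and low spread, and Psmb8, Psme4, Psmb9 and Psmb10 lie at low level and high spread.

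By class median, the 19S cap genes lay below the constitutive core genes. Single genes overlapped in level: Psmc3 averaged 302 TPM and Psmb7 131 TPM over the 6 libraries. The median over the 6 genes of the ATPase ring, which unfolds substrates, was 218 ± 22.2 TPM in Ccn1cKO and 220.2 ± 36.9 TPM in Ctrl, and that over the 11 other cap genes was 129.7 ± 5.36 TPM in Ccn1cKO and 108 ± 18.0 TPM in Ctrl (SD, n = 3 each). The ATPase median was above that of the other cap genes in 6 of 6 libraries, 1.42- to 2.22-fold. Within the ring, Psmc3 was the highest gene in 5 of 6 libraries and Psmc6 the lowest in 6 of 6, 2.34- to 4.41-fold apart. Psmc6 had 66.3, 68.4 and 119.7 TPM in Ccn1cKO 1 to 3, against 106, 102 and 129.7 TPM in Ctrl 1 to 3. Of the other cap genes, Psmd4, which encodes a ubiquitin receptor, was the highest in 6 of 6 libraries, at 275 ± 43.0 TPM in Ccn1cKO and 268 ± 27.2 TPM in Ctrl. Psmd3, a lid subunit gene, and Psmd1, a scaffold gene of the cap base, were the lowest by mean, at 34.1 and 38.4 TPM. Psmd1 had 33.7, 30.4 and 55.6 TPM in Ccn1cKO 1 to 3, against 11.5, 38.9 and 60.1 TPM in Ctrl 1 to 3, and so was low in Ctrl 1. Psmd2, the other base scaffold gene, had 56.1, 79.7 and 85.3 TPM in Ccn1cKO 1 to 3, against 60.0, 74.8 and 142 TPM in Ctrl 1 to 3, and so was high in Ctrl 3. Of its 31-base words, 31.6% occur in other genes.

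The median over all 14 tested constitutive core genes exceeded that over the 17 cap genes in 6 of 6 libraries, by 2.06, 2.31 and 2.17 times in Ccn1cKO 1 to 3, against 2.87, 2.69 and 2.77 times in Ctrl 1 to 3. The 2 groups of ratios did not overlap. Cap medians were 168, 161 and 174 TPM in Ccn1cKO 1 to 3, against 130, 139 and 134 TPM in Ctrl 1 to 3, and did not overlap. Core medians were 345, 372 and 377 TPM in Ccn1cKO 1 to 3, against 372, 373 and 370 TPM in Ctrl 1 to 3, and overlapped. This ratio and its alternatives were chosen after the values were seen. The separation of the ratios held in 30 of 31 cases when each gene was left out in turn. Leaving out 1 gene moves a median no further than its neighbours in the list, so this is not a test of the separation. An exact two-sided permutation p cannot fall below 0.1 with 3 against 3. The separation also depended on the summary used. As a ratio of means it was 3.30, 2.97 and 2.99 in Ccn1cKO and 4.29, 3.04 and 2.81 in Ctrl, which overlap, and ratios of geometric means and of medians in CPM overlapped as well. The gene at the middle of the cap list was Psmd14, Psmd8 and Psmc4 in Ccn1cKO 1 to 3, against Psmd12, Psmd12 and Psmd11 in Ctrl 1 to 3.

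**Figure D4:**
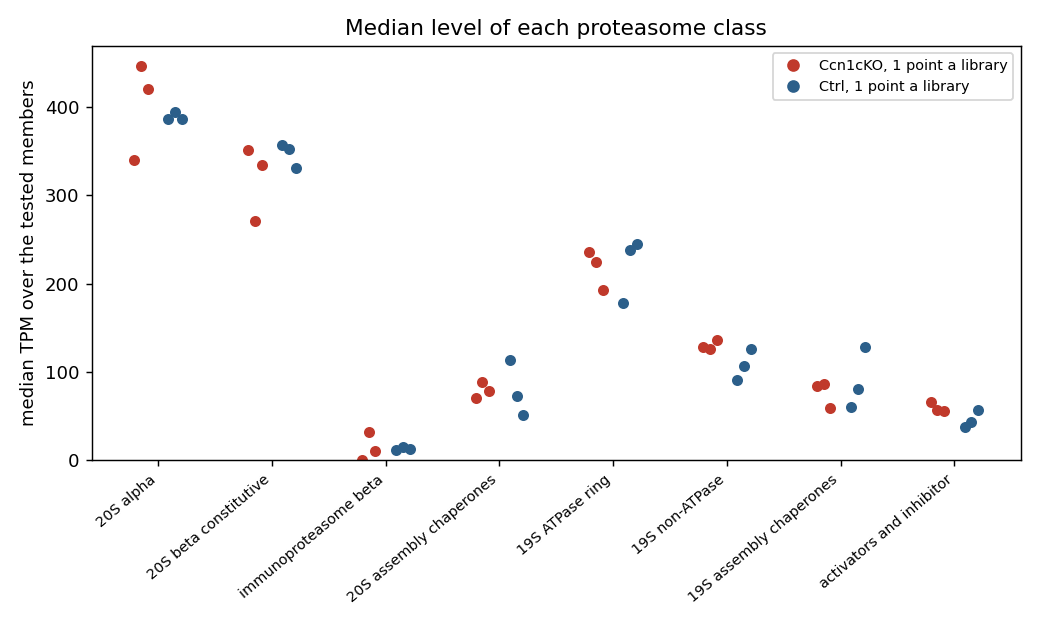
Median TPM over the tested genes of each proteasome class in each library, Ccn1cKO red and left of Ctrl in blue. Core rings lie highest, then the cap ATPases, with the immunoproteasome genes lowest. The genotypes overlap in all 8 classes drawn, and the medians over all core genes and all cap genes are not drawn.

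The 20S chaperones Psmg1 to Psmg4 had a median of 79.0 ± 9.13 TPM in Ccn1cKO and 78.9 ± 31.7 TPM in Ctrl, and the 19S chaperones Psmd5, Psmd9 and Psmd10 of 76.4 ± 15.4 TPM in Ccn1cKO and 89.6 ± 34.6 TPM in Ctrl (SD, n = 3 each). Psmg1 was the most variable, with 37.2, 155 and 66.0 TPM in Ccn1cKO 1 to 3, against 143, 88.7 and 43.6 TPM in Ctrl 1 to 3, from lowest to highest within Ccn1cKO alone. Psmd10, which encodes gankyrin, had 132, 125 and 104 TPM in Ccn1cKO 1 to 3, against 159, 136 and 146 TPM in Ctrl 1 to 3. In TPM all 3 Ccn1cKO values lay below all 3 Ctrl values, while in CPM the groups overlapped (log2 difference -0.30 ± 0.24, SE, edgeR quasi-likelihood adjusted p = 0.999992). Without Ctrl 1 the log2 difference of Psmd10 was -0.16.

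Among the activators, Psme2 and Psme1, which encode the interferon-responsive PA28 subunits, were the most abundant. Psme1 had 116, 179 and 172 TPM in Ccn1cKO 1 to 3, against 165, 126 and 153 TPM in Ctrl 1 to 3. Psme2 had 256, 359 and 351 TPM in Ccn1cKO 1 to 3, against 434, 314 and 219 TPM in Ctrl 1 to 3. Psme2 was above Psme1 in 6 of 6 libraries, 1.44- to 2.64-fold, and neither gene separated the genotypes. Both were thus abundant also in the libraries that lacked Psmb8 or Psmb9. 76.5% of the 31-base words of Psme2b occur in Psme2, and Psme2b had at most 1.89 TPM. Of the words of Psme2, 33.5% occur in other genes. Psme3, which encodes a nuclear activator, had 42.4, 27.5 and 19.8 TPM in Ccn1cKO 1 to 3, against 5.52, 42.8 and 56.3 TPM in Ctrl 1 to 3, lowest in Ctrl 1. Psme4, which encodes the activator PA200, had 75, 41 and 1 counts in Ccn1cKO 1 to 3, against 727, 584 and 11 counts in Ctrl 1 to 3. Its counts were high in Ctrl 1 and Ctrl 2 and low in the other 4 libraries, Ctrl 3 included, so the groups overlapped. Psmf1, which encodes a proteasome inhibitor, had 66.1, 56.7 and 55.6 TPM in Ccn1cKO 1 to 3, against 37.5, 36.0 and 50.6 TPM in Ctrl 1 to 3.

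Between Ccn1cKO and Ctrl cells no proteasome gene passed the test, and neither did the deleted gene Ccn1 (edgeR adjusted p = 0.999992), so a gene that did not pass is not shown to be unchanged. edgeR's quasi-likelihood test over all 11574 genes called 0 of the 47 tested proteasome genes (threshold 0.05 after Benjamini-Hochberg adjustment), and 0.0% of all genes. DESeq2 also called 0 of the 47, against 0.907% of all genes called higher and 0.725% lower in Ccn1cKO, and limma-voom called 0. At an unadjusted edgeR p under 0.05 there was 1 proteasome gene, Psmd14, higher in Ccn1cKO, where 1.43% of all genes were higher and 1.31% lower. The limma-voom test gave 2, Psmd14 and Psmd8, against a background of 3.19% higher and 2.06% lower. In direction, 22 of the 47 were above and 25 below 0, where 50.3% of all tested genes were above and 49.7% below. Their median log2 difference was -0.043, against 0.0044 over all tested genes. For the 40 that averaged 50 CPM or more, the quartiles were -0.15 and 0.15, against -0.23 and 0.21 over all genes past that level. These sets were not matched for level.

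By class, the median log2 difference was -0.058 for the 7 tested alpha genes, -0.12 for the 7 constitutive beta genes, 0.026 for the 6 ATPase genes and 0.096 for the 11 other cap genes. Among the catalytic genes, Psmb6 had a log2 difference of -0.12 ± 0.17 (SE), with a 95% interval from -0.51 to 0.27. Psmb5 had -0.22 ± 0.27, with an interval from -0.85 to 0.40, and Psmb7 had 0.013 ± 0.32, with an interval from -0.74 to 0.76. Psmb5 was at -0.47 without Ccn1cKO 1 and -0.063 without Ccn1cKO 3. Psme1 had 0.055 ± 0.28, with an interval from -0.60 to 0.71, and Psme2 had -0.043 ± 0.33, with an interval from -0.80 to 0.71. The inducible catalytic genes had far wider intervals. Psmb8 had -0.54 ± 2.45, with an interval from -6.21 to 5.14. Psmb9 had -0.25 ± 2.53, with an interval from -6.12 to 5.63, and Psmb10 had 0.029 ± 1.60, with an interval from -3.68 to 3.73.

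**Figure D5:**
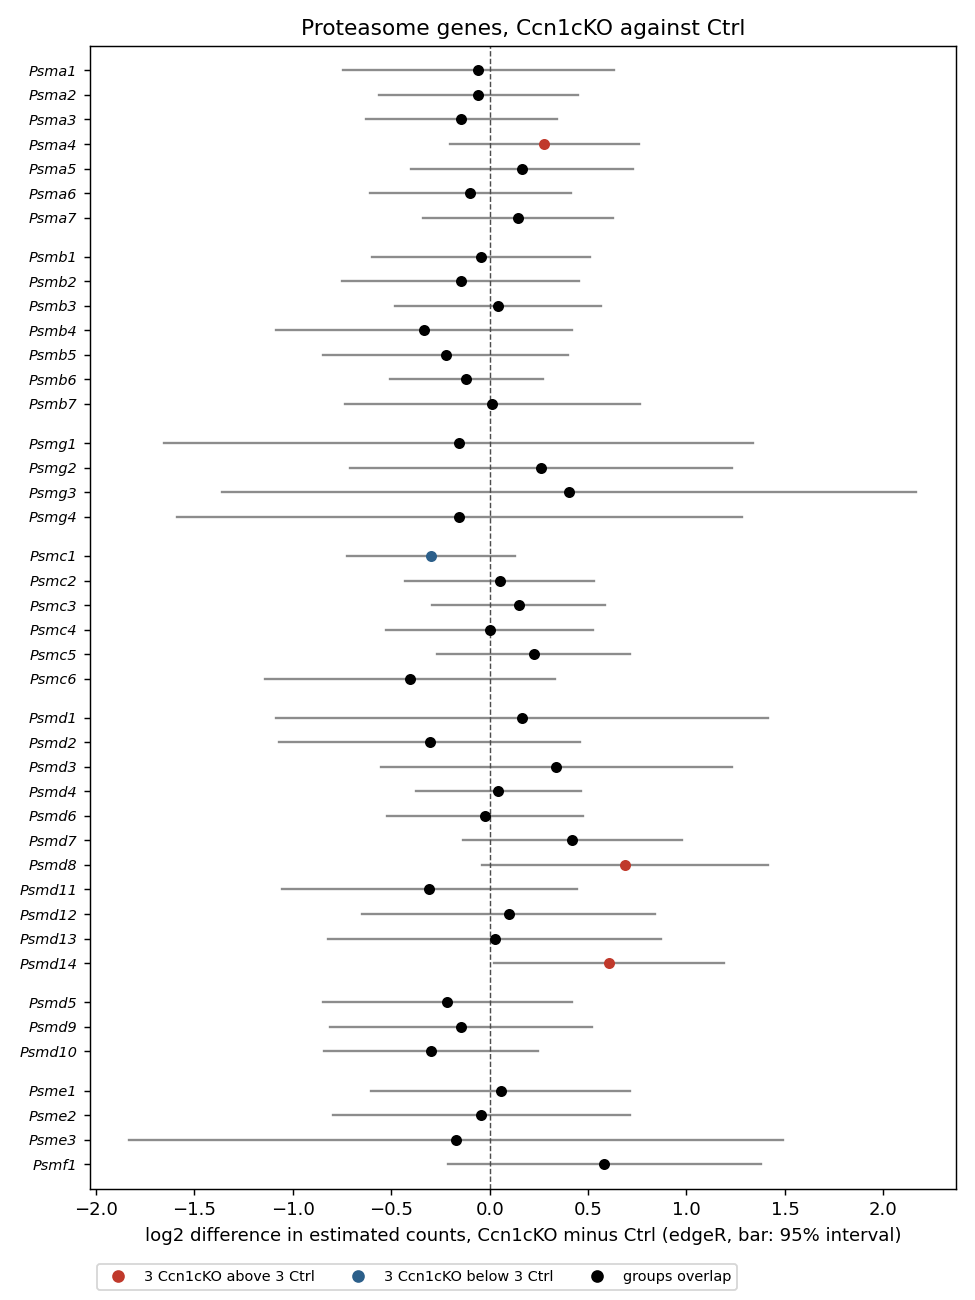
Log2 difference in estimated counts, Ccn1cKO minus Ctrl, with its 95% interval from edgeR's quasi-likelihood fit, for 42 of the 47 tested proteasome genes grouped by role; Psmb8, Psmb9, Psmb10, Psmb11 and Psme4 are left out because their intervals are several units wide. Intervals include 0 for every gene drawn except Psmd14, and colour marks the 4 genes whose CPM values did not overlap between the genotypes.

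The 3 Ccn1cKO values in CPM lay above the 3 Ctrl values for 3 of 47 proteasome genes, Psmd14, Psmd8 and Psma4, and below them for 1, Psmc1, where 4.99% of all tested genes were separate and higher and 4.62% separate and lower. The share among the proteasome genes was thus near the background. Psmd14, on chromosome 2 from 61711694 to 61800376 in GRCm38, encodes the deubiquitinase of the 19S lid that removes ubiquitin chains as substrates enter. It had 194, 139 and 160.3 CPM in Ccn1cKO 1 to 3, against 120.3, 117 and 87.5 CPM in Ctrl 1 to 3. Its log2 difference was 0.60 ± 0.25 (SE, 95% interval from 0.02 to 1.19, edgeR quasi-likelihood p = 0.0442, adjusted p = 0.999992, exact two-sided permutation p = 0.1, the smallest that 3 against 3 allows). Psmd7, which encodes the partner subunit that pairs with this deubiquitinase in the lid, had 194, 204 and 223 CPM in Ccn1cKO 1 to 3, against 119, 195 and 149.9 CPM in Ctrl 1 to 3. The Psmd7 groups overlapped through Ctrl 2, with a log2 difference of 0.42 ± 0.24, or 0.27 without Ctrl 1. Psmd8, a further lid subunit gene on chromosome 7 from 29174188 to 29180701, had 215, 157 and 141 CPM in Ccn1cKO 1 to 3, against 69.2, 127 and 123 CPM in Ctrl 1 to 3. Its log2 difference was 0.69 ± 0.31, with an interval from -0.041 to 1.41. Ctrl 1 was its lowest library, and without Ctrl 1 the log2 difference of Psmd8 was 0.46.

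The other 5 lid genes among those taken by name did not share this direction as a set. The log2 difference was 0.34 for Psmd3, -0.025 for Psmd6, -0.31 for Psmd11, 0.096 for Psmd12 and 0.027 for Psmd13. Psma4 had 211, 225 and 189 CPM in Ccn1cKO 1 to 3, against 187, 143 and 184 CPM in Ctrl 1 to 3, with a log2 difference of 0.28 ± 0.21, and its groups overlapped in TPM. Psmc1, an ATPase gene, had 201, 212 and 218 CPM in Ccn1cKO 1 to 3, against 224, 259 and 291 CPM in Ctrl 1 to 3, with a log2 difference of -0.30 ± 0.19, and it too overlapped in TPM. Of the 31-base words of Psmc1, 32.2% occur in other genes. Psmf1, the inhibitor gene, had 125, 88.7 and 76.5 CPM in Ccn1cKO 1 to 3, against 49.8, 60.5 and 83.4 CPM in Ctrl 1 to 3, with a log2 difference of 0.58 ± 0.34. Its groups separated in TPM and overlapped in CPM. Psmc6 had a log2 difference of -0.40 ± 0.32. Single libraries moved several of these values: without Ctrl 2 Psma4 was at 0.17, without Ccn1cKO 1 Psmf1 was at 0.36, and Psmc6 was at -0.25 without Ccn1cKO 1, -0.25 without Ccn1cKO 2 and -0.77 without Ccn1cKO 3. For these 8 genes, which had the smallest p of all that averaged 20 CPM or more, the edgeR adjusted p was 0.999992 throughout. Psme4 had a log2 difference of -3.41 ± 1.85, with an interval from -7.69 to 0.87 that included 0.

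Genes that act with the proteasome outside its naming family were examined as 5 lists, and edgeR called 0 of their 70 tested genes after adjustment over all genes. Of the 12 tested further subunit, assembly and partner genes, 5 were higher and 7 lower in Ccn1cKO (median log2 difference -0.09). Adrm1, which encodes a ubiquitin receptor of the cap, had 185, 173 and 139 CPM in Ccn1cKO 1 to 3, against 118, 117 and 113 CPM in Ctrl 1 to 3. Its groups did not overlap (log2 difference 0.51 ± 0.23, edgeR adjusted p = 0.999992). Uchl5, which encodes the deubiquitinase that binds this receptor, stood at 54.9 ± 33.6 CPM in Ccn1cKO and 87.3 ± 36.9 CPM in Ctrl (SD, n = 3 each).

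Of the 13 tested genes around NRF1 (Nfe2l1), the transcription factor that raises proteasome gene expression when the proteasome is inhibited, 8 were higher and 5 lower (median log2 difference 0.18). Ddi2, which encodes the protease that activates NRF1, had 101, 139 and 195 counts in Ccn1cKO 1 to 3, against 0, 0 and 0 counts in Ctrl 1 to 3. All 3 Ctrl libraries were at 0. At least 1 library at 3 counts or fewer was found for 36.9% of tested genes, but the share with all 3 libraries of a genotype at 0 was not counted. Ddi2 was the 1 gene of this list that DESeq2 called (DESeq2 adjusted p = 3.68e-06), against 0.907% of all genes called higher. Its edgeR adjusted p was 0.999992. Nfe2l2, which encodes NRF2, stood at 122 ± 15.7 CPM in Ccn1cKO and 93.8 ± 19.4 CPM in Ctrl (SD, n = 3 each). Of the 11 tested ubiquitin, E1 and shuttle genes, 3 were higher and 8 lower. Ubb, a polyubiquitin gene, stood at 8655 ± 813 CPM in Ccn1cKO and 8006 ± 544 CPM in Ctrl (SD, n = 3 each).

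Genes of the interferon response and of MHC class I processing, which are induced together with the immunoproteasome, were tested beside it. In the interferon list, 17 of 22 tested members lay higher and 5 lower in Ccn1cKO, with a median log2 difference of 0.38, with 4 at an unadjusted edgeR p under 0.05, all higher. Over all tested genes 50.3% were above 0 and 1.43% were higher at that p. Among the 5 lower were Ifit2 (log2 difference -1.92 ± 1.59, SE) and Rsad2 (-1.93 ± 1.90), whose groups overlapped. The summed level of the list was 1099, 1895 and 1759.7 CPM in Ccn1cKO 1 to 3, against 865, 1225 and 1194 CPM in Ctrl 1 to 3, which overlap. Ifit1 had 1464, 2027 and 1908 counts in Ccn1cKO 1 to 3, against 153, 204 and 398 counts in Ctrl 1 to 3, and Trim21 had 217, 429 and 465 counts in Ccn1cKO 1 to 3, against 1, 0 and 0 counts in Ctrl 1 to 3. DESeq2, which called 0.907% of all genes higher, called these 2 genes of the list, and edgeR neither (adjusted p = 0.936 and 0.999992). Ccn1cKO 1, with 1464 counts of Ifit1, had 3 counts of Psmb8, 0 of Psmb9 and 147 of Psmb10. Ctrl 3, with the highest Ifit1 count in Ctrl (398), had 1151 counts of Psmb8, 0 of Psmb9 and 176 of Psmb10. Whether these genes varied together was not tested. In the MHC class I list, 8 of 12 tested members lay higher and 4 lower, with a median of 0.16. Calr, which encodes the chaperone calreticulin, had 254, 208 and 181 CPM in Ccn1cKO 1 to 3, against 78.8, 141 and 146 CPM in Ctrl 1 to 3, which do not overlap. B2m, the light chain gene of MHC class I, had 72.9, 132 and 58.4 CPM in Ccn1cKO 1 to 3, against 21.2, 33.0 and 66.7 CPM in Ctrl 1 to 3, and Ctrl 3 lay among the Ccn1cKO values.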

How the data were processed

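RNA-seq was deposited for 6 samples, and genotype and replicate number were taken from the titles. The submitters' processing notes name CASAVA 1.8, cutadapt 1.11 and kallisto 0.42.5, while the build, the annotation and how transcripts were summed per gene were not given in the sources used here. Each library has deposited kallisto estimates for every gene, both as estimated counts and as TPM, per the file headers. Counts were rounded, and 11574 of 19684 genes with a count passed filterByExpr. TMM scaling preceded the test in edgeR 4.0.16 (quasi-likelihood, robust, genotype as the only term; R 4.3.3), with Benjamini-Hochberg adjustment over all genes. The SE is the log2 difference divided by the root of F. DESeq2 1.42.0 and limma 3.58.1 were alternatives, with other scalings, filters, TPM pseudocounts, a replicate block and each library left out. Coordinates are from GENCODE M21 (GRCm38), to which 99.1% of identifiers matched. On simulated counts with the spread of these libraries, the edgeR test missed most genes given a known change, large changes included. Single values were compared by exact permutation over 20 assignments.

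The members, lists and tests were chosen with earlier results of these data known. Fold changes are given for Psmb5 to Psmb10, Psme1, Psme2 and the 8 genes of smallest p that averaged 20 CPM or more, and other genes by the 2 smallest p of each list, of which 1 gene is not reported here; Psme4 and other printed differences outside this rule were chosen after their values were seen. Estimated counts carry counting error and the error of dividing reads between copies.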

Additional observations from a re-analysis of the deposited data

How the results depend on the processing

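The count of proteasome genes called was 0 in all 11 alternatives and all 6 fits without 1 library. The count over all genes was 0 in 7 of the 11 and in those 6 fits, and was 198 with DESeq2, 2 when only genes averaging 50 CPM or more were tested, 62 on log2(TPM + 0.1) and 23 on log2(TPM + 1) without a filter. Ccn1 did not pass in edgeR (adjusted p = 0.999992), in the other 10 alternatives (0.175 to 0.999979) or without 1 library (0.827 to 0.99998, log2 difference -2.50 to -1.97), and passed with DESeq2 (log2 difference -2.22, adjusted p = 4.15e-06). The median log2 difference of the proteasome genes lay between -0.089 and 0.12 without 1 library, highest without Ctrl 1. The sign turned for 3 of the 16 named genes in alternatives. Psmb8 was 2.91 with limma-voom, 0.90 on log2(TPM + 1) with and without a filter, and 2.17 on log2(TPM + 0.1). Psmb10 was -1.74, -0.95 and -1.63 in the same order, and Psme2 was 0.019, 0.037 and 0.037. With the replicate number as a block, Psmb8 was 3.88, Psmb10 -1.16 and Psme2 0.025, and no call changed. Deviations of same-numbered libraries correlated at 0.00886, 0.0273 and 0.0133, above those of different-numbered libraries, which ran from -0.0157 to 0.00125. All of these lay near 0, and the labels name no pairing, so the numbers were not taken to pair the samples. Without 1 library, log2 differences ran from -0.47 to -0.063 for Psmb5, -0.21 to 0.0097 for Psmb6, -0.24 to 0.17 for Psmb7, -1.87 to 8.56 for Psmb8, -1.57 to 0.34 for Psmb9, -1.28 to 0.60 for Psmb10, -0.077 to 0.22 for Psme1 and -0.27 to 0.34 for Psme2. The cause was not tested. From CPM in place of TPM, the mean share of Psmb8 was 10.8% in Ccn1cKO and 11.2% in Ctrl, and that of Psmb9 1.21% in Ccn1cKO and 1.35% in Ctrl. Over all members, tested or not, the class median was 349 TPM for alpha genes, 41.6 TPM for activators and 339 TPM for both core rings. The ratio of core to cap was 3.08 in Ccn1cKO and 3.38 in Ctrl from means, 3.05 in Ccn1cKO and 3.41 in Ctrl from geometric means, and 1.43 in Ccn1cKO and 1.60 in Ctrl from medians in CPM, all chosen, like the ratio of medians in TPM, after the values were seen. The filter at 50 CPM gave no value for Psmb8, Psmb9 and Psmb10. With 3 libraries a genotype, Psmb9 and Psmb8 had the widest 95% intervals of the 47 tested genes.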
